A study of Mus musculus with 4 samples.

Results

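The genes Igf1, Pdgfa, Pdgfb, Tgfa, Hbegf, Vegfa, Vegfb, Osm, Inhba and Bmp2, which encode secreted trophic factors, were followed in single brain cells of demyelinated mice. These 10 genes of the 32285 in the deposited gene table were taken by symbol, from a list chosen with earlier results of these data known. The cells came from 2 PRMT1FL mice, which carry floxed Prmt1 alleles and are called wild type in the labels, and 2 PRMT1Cx3cr1-KO mice (KO mice), where a recombinase that tamoxifen activates, under the Cx3cr1 promoter, removes these alleles. Both genotypes had the C57BL/6 background, received tamoxifen at 5 to 6 wk of age by the study's methods (the labels give this age for the diet), and then ate 0.2% cuprizone, a copper chelator that strips myelin, for 5 wk. Each mouse gave 1 droplet library of brain cells positive for CD45 and CD11b. Whether the PRMT1FL mice also carry the recombinase is not stated in the sources used here, and Cx3cr1 is also active in macrophages other than microglia. Prmt1 itself, the deleted gene, stood at 90.8 and 83.9 CPM (UMIs per 1000000 UMIs summed) in microglia of PRMT1FL mice and 70.2 and 70.8 CPM in KO mice, a log2 fold change of -0.38 (SE 0.07, adjusted p = 0.0767 by the quasi-likelihood method of edgeR, Benjamini-Hochberg over all genes). The counted transcript was thus lower in both KO mice but still present. Counts of 3' ends do not show whether a transcript came from an intact allele. The study reports loss of the PRMT1 protein in isolated KO microglia by immunoblot. The 4 libraries held 76943248 to 99559644 UMIs (unique molecular identifiers, each counting a captured RNA molecule), and of the barcodes 178 occurred in 2 libraries, 1 in 3 and 11 in all 4. Cells were grouped by clustering, without the members and the genes that differed between genotypes, into 18 named or numbered cell states. A name ending in -like rests on marker genes only, and the letters A1 to F follow the study's cluster names. The study describes F by monocyte markers and the others as microglial. The F-like cells here carried border macrophage genes more than monocyte genes, and monocyte-like cells formed a separate state. In the microglial clusters the microglial genes P2ry12, Tmem119 and C1qa were at 403 to 580, 329 to 434 and 7614 to 8524 CPM over the mice. There 5 endothelial genes summed to 1.18 to 1.67 CPM, 5 oligodendrocyte genes to 65.6 to 72.0 CPM and 6 neutrophil genes to 121 to 141 CPM. The sum of 7 astrocyte genes was 7.67 and 5.61 CPM in PRMT1FL mice and 4.38 and 2.28 CPM in KO mice. Marker genes also served to name clusters, so these levels are a description.

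Trophic factors act from outside the cell. IGF1 binds the IGF1 receptor and supports survival and differentiation of cells of the oligodendrocyte lineage, and PDGF-A, which binds PDGF receptor alpha, drives division and migration of oligodendrocyte precursors. PDGF-B and VEGF-A act mainly on pericytes and endothelial cells, TGF-alpha and HB-EGF are ligands of the EGF receptor, oncostatin M signals through gp130, and activin A (the dimer of the Inhba product) and BMP2 signal through SMAD proteins, activin A favouring and BMP2 restraining the maturation of oligodendrocytes.

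Igf1 (chr10:87858265-87937042, plus strand, GRCm38) was the member with the most UMIs, 82116 in all cells that passed the limits on genes and mitochondrial UMIs, and 2.14% of them lay outside the microglial clusters. Summed over the microglia of each mouse, it was at 192 and 200 CPM in PRMT1FL mice and at 236 and 320 CPM in KO mice. Both KO mice lay above both PRMT1FL mice, and KO mouse 2 lay further from KO mouse 1 than the PRMT1FL mice did from each other. The log2 fold change was 0.43 (SE 0.13, adjusted p = 0.150 from edgeR), so the difference did not pass the threshold of 0.05. With a mouse left out, here and below, 1 genotype is a single mouse that is assumed to vary like the mice of the other genotype, so such p-values rest on that assumption. Over the mice left out in turn, the fold change ran from 0.22 (without KO mouse 2) to 0.61 (without KO mouse 1). With all 4 mice DESeq2 gave 0.43 (adjusted p = 0.0263). Single mice weighed on the whole table, as 18.1% of all genes passed without KO mouse 1, 6.31% without KO mouse 2, 0.0284% without PRMT1FL mouse 1 and 0.0423% without PRMT1FL mouse 2, and DESeq2 called 5.41%. Such sums cannot tell fewer cells of a kind from less RNA per cell.

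In the same sums the level of Vegfa (chr17:46016993-46032369, minus strand, GRCm38), a factor for endothelial growth that hypoxia induces in many cells, stood at 16.7 and 14.7 CPM against 11 and 5.77 CPM in KO mice. The groups did not overlap and KO mouse 2 was the lowest. Its log2 fold change of -0.98 (SE 0.29, adjusted p = 0.148 from edgeR) was the farthest from 0 among the 8 members with enough counts to be tested. With each mouse left out in turn, the fold of Vegfa ran from -1.54 (without KO mouse 1) to -0.56 (without KO mouse 2).

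The platelet-derived factors were lower in both KO mice. Pdgfa stood at 79.5 and 82.7 CPM in PRMT1FL and 76.8 and 69.1 CPM in KO mice (log2 fold change -0.23, SE 0.08, adjusted p = 0.216 from edgeR). For Pdgfb the values were 116 and 126 CPM against 115 and 88.3 CPM (-0.32, SE 0.14, adjusted p = 0.269). In Pdgfb the gap between the nearest mice of the 2 genotypes was small beside the distance of KO mouse 2 from the other 3 mice. With each mouse left out in turn, the folds were farthest from 0 without KO mouse 1, at -0.33 for Pdgfa and -0.55 for Pdgfb. They were nearest to 0 without KO mouse 2, at -0.13 and -0.12.

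Among the ligands of the EGF receptor, Tgfa measured 27.5 and 28.0 CPM in PRMT1FL mice and 25.8 and 23.6 CPM in KO mice (log2 fold change -0.24, SE 0.08, adjusted p = 0.166 from edgeR), again with no overlap. With each mouse left out in turn, the fold of Tgfa ran from -0.33 (without KO mouse 1) to -0.16 (without KO mouse 2). Hbegf was low, at 5.66 and 4.57 CPM against 4.36 and 5.04 CPM, and the genotypes overlapped (-0.20, SE 0.14, adjusted p = 0.462 from edgeR). Its fold was -0.03 and -0.34 without the first and the second PRMT1FL mouse, and -0.12 and -0.28 without the first and the second KO mouse.

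Vegfb, which unlike Vegfa is not regarded as a strong driver of vessel growth, overlapped between genotypes at 92.0 and 97.3 CPM against 82.7 and 93.7 CPM (-0.18, SE 0.07, adjusted p = 0.249 from edgeR). Leaving out KO mouse 1 gave -0.11 (adjusted p = 0.332 from edgeR), and over the other mice left out in turn it was -0.14 to -0.24. Osm, the cytokine oncostatin M, gave 85.1 and 76.2 CPM in PRMT1FL mice, and the KO mice lay on either side of them at 105 and 69.6 CPM (0.04, SE 0.20, adjusted p = 0.923). The direction of the Osm difference rested on single mice. With each mouse left out in turn, the fold of Osm ran from -0.31 (without KO mouse 1) to 0.33 (without KO mouse 2).

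Inhba and Bmp2 were barely detected in microglia and were not tested. Inhba had 1 and 0 UMIs in the microglia of PRMT1FL mice and 0 and 5 in those of KO mice. Bmp2 had 0 UMIs in both PRMT1FL mice, which allows a UMI in up to 0.0274% and 0.0385% of their microglia by counting error alone, and 10 and 6 UMIs in KO mice. No direction was read from these counts.

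**Figure D1:**
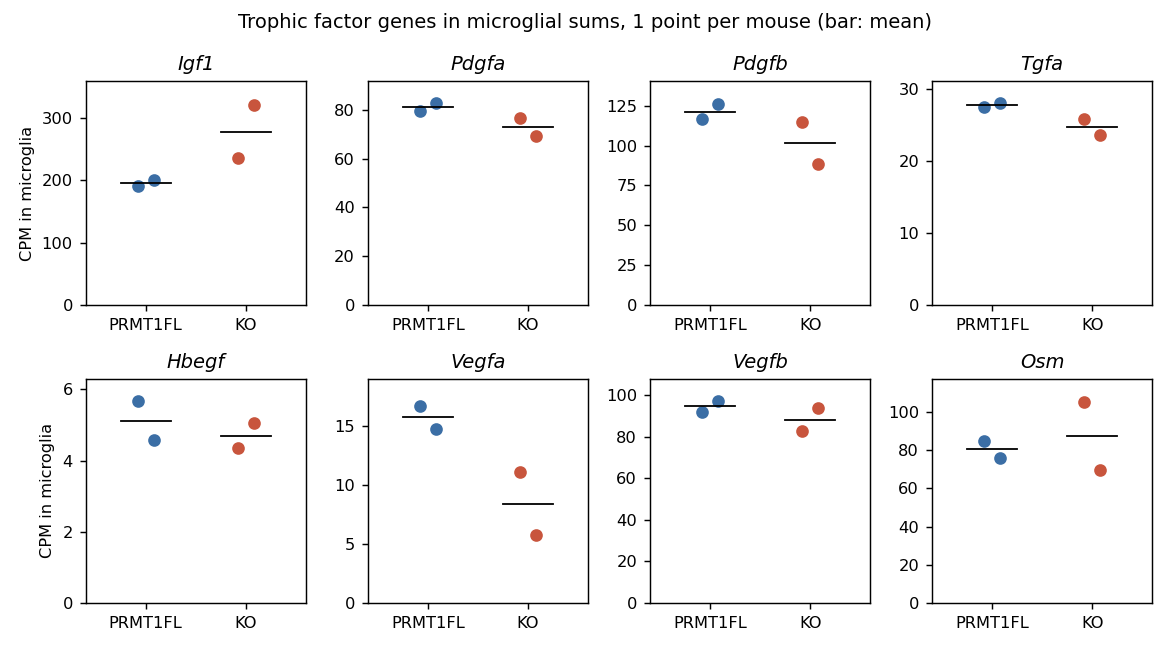
Level of the 8 tested trophic factor genes in microglia (vertical axis, CPM from 0), with 1 point per mouse and a bar at the mean of each genotype. Igf1 is higher in both KO mice (236 and 320 CPM against 192 and 200 CPM), Vegfa, Pdgfa, Pdgfb and Tgfa are lower in both, and Hbegf, Vegfb and Osm overlap.

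Of the 8 members tested in these sums, 0 passed an adjusted p of 0.05 by edgeR, where 0.666% of the 13822 genes tested did. At an unadjusted p under 0.05 there were 5 of 8 members, against 19.7% of all genes, and DESeq2 called 1 member, Igf1. Of these 8, only Igf1 was higher in both KO mice, where 38.8% of genes tested were, and 4 members were lower in both, where 17.1% of genes were. The median log2 fold change of all genes was -0.004, or 0.07 without TMM scaling, and over the 18 alternatives run the sign held for Igf1, Pdgfa, Pdgfb, Tgfa, Vegfa and Vegfb but not for Hbegf and Osm.

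Other features of the libraries moved with genotype. B1-like cells, named from the markers Spp1, Cybb, Apoe and Cd38, made up 0.814 and 0.698% of the cells in PRMT1FL mice and 1.78 and 6.59% in KO mice. The summed level of 7 border macrophage genes inside the microglial clusters was 33.3 and 31.8 CPM against 60.3 and 157 CPM, and that of 5 erythroid genes 242 and 94.4 CPM against 0.0614 and 0.0216 CPM, with 0 genes of either list at 0 in all mice. Several cell types other than microglia made up a smaller share of cells in both KO mice. Astrocyte-like cells were at 1.31 and 1.21% against 0.318 and 0.156%, and neutrophil-like cells at 0.228 and 0.588% against 0 and 0.00917%. Endothelial-like cells were at 0.324 and 0.196% against 0.135 and 0.0917%, and oligodendrocyte-like cells at 0.236 and 0.233% against 0.0771 and 0%. Without B1-like cells the Igf1 fold change was 0.40 (adjusted p = 0.140 from edgeR), close to the value with them. The part of the other features in the member differences was not tested.

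Igf1 UMIs were found in all 18 states. Its level was highest in B1-like cells, with 528 and 608 CPM in PRMT1FL mice and 527 and 497 CPM in KO mice, or 540 CPM ± 47.7 (SD, n = 4). Of these 1053 cells, 510 were in subcluster 7.0, led by Gpnmb, Cd5l and Ms4a7, 509 in subcluster 7.1, led by Ms4a7, Clec12a and Cd38, and 34 in subcluster 7.5. The median log2 ratio of 7 border macrophage genes to all other cells was -0.36, 1.52 and -0.44 in subclusters 7.0, 7.1 and 7.5. That of 9 microglial genes was 0.03, -0.33 and -0.50. B1-like cells were counted as microglia, but for subcluster 7.1 these markers leave that identity uncertain. Cluster 1, led by haemoglobin genes and then Lgals3, Ccl6 and Tmsb10, followed at 258, 261, 287 and 393 CPM (PRMT1FL mice before KO mice, here and below), and cluster 0, led by Baiap2l2, Lgi2 and Tnfsf8, at 224, 237, 273 and 333 CPM. Haemoglobin genes made up 0.0757% of the UMIs of cluster 1, and erythroid genes were almost absent from KO microglia (0.0614 and 0.0216 CPM). Cluster 2, led by Il12b, Dusp2 and Cxcl2, measured 195, 202, 238 and 324 CPM. F-like cells, which carry the markers Mrc1, F13a1 and Mgl2 and were not counted as microglia, measured 206, 193, 196 and 280 CPM. From cluster 1 to F-like cells each step in the mean was smaller than the spread over the mice of either state. Within each mouse, however, cluster 1 lay above cluster 0 and cluster 0 above cluster 2. B1-like cells lay above every other state with at least 50 cells per mouse in every mouse.

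Lower levels were found in A1-like cluster 8 (167, 153, 173 and 258 CPM) and A1-like cluster 6 (124, 125, 161 and 236 CPM), both with genes of dividing cells, in C1/C2-like cells (142, 156, 210 and 220 CPM), named from interferon, cytokine and MHC genes, and in interferon-responsive-like cells (125, 131, 193 and 266 CPM). The means of these 4 states differed by less than the spread over mice. Within each mouse, A1-like cluster 6 lay below A1-like cluster 8 and below interferon-responsive-like cells. In PRMT1FL mice the lowest microglial levels were those of the D/E-like clusters 3 and 5, named from markers that include the homeostatic genes P2ry12, Sall1 and Tmem119. Cluster 3 was led by Il7r, Crybb1 and Camk2n1 and cluster 5 by Mmp12, Pla2g7 and Gdf15, and Gdf15 was among the leading genes of both. Their median depths of 3718 and 2758 UMIs were the lowest of the microglial clusters (9497 in cluster 0). In KO mice cluster 5 was not among the lowest, and both clusters are described with the genotype comparison.

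Some Igf1 was also counted in cells of other types, with 113, 48.3, 113 and 254 CPM in astrocyte-like cells from 12 to 66 UMIs per mouse. These cells may be a mixture. Their first leading gene was Ttr, a choroid plexus gene, and 13.4% of them were marked as likely doublets. The median log2 ratio to all other cells was 8.19 for astrocyte genes and 5.84 for choroid plexus genes. Endothelial-like cells held 5 UMIs in all, or 28.9 CPM over the 4 mice, and a UMI of Igf1 was found in 1.45% of them after every cell was thinned to 1000 UMIs (3.90% unthinned, median depth 2081 UMIs). In B1-like cells these shares were 36.7% thinned and 82.7% unthinned at a median depth of 6734 UMIs. Over all microglia, the thinned share of cells with a UMI of Igf1 was 15.1 and 15.3% for the PRMT1FL and 18.8 and 24.8% for the KO mice (50.2, 52.5, 57.4 and 68.3% unthinned). Both KO mice were higher on either scale.

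**Figure D2:**
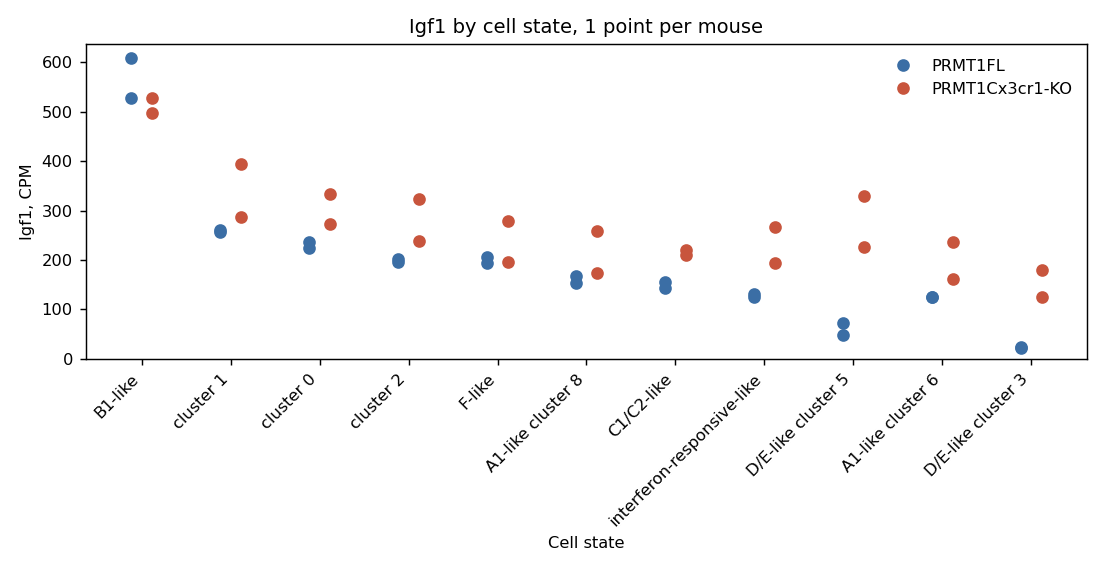
Igf1 level (vertical axis, CPM from 0) in each cell state (horizontal axis, states with at least 50 cells in every mouse, ordered by mean level), with 1 point per mouse in blue for PRMT1FL and red for KO. B1-like cells are highest in all mice at 497 to 608 CPM, and in D/E-like cluster 3 the PRMT1FL mice lie at 21 and 24.7 CPM and the KO mice at 124 and 180 CPM.

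The bulk of Igf1 came from large clusters. Cluster 0 held 43.3 and 45% of the Igf1 UMIs in PRMT1FL mice, against 28.9 and 30.2% in KO mice. B1-like cells, with their high level and small number, carried 2.27 and 2.77% against 4.06 and 9.44% in KO mice. The D/E-like cluster 5 went from 0.448 and 0.913% to 3.02 and 6.83%, while its share of cells was 4.91 and 6.68% against 8.02 and 11.6%.

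The other members peaked elsewhere (cluster 15, with 13 cells, is left aside, and levels are ranked by their mean over mice). Pdgfa was highest in oligodendrocyte-like cells at 365 and 252 CPM in PRMT1FL mice and 272 CPM in KO mouse 1 (KO mouse 2 had none of these cells), against 52.8 to 84.5 CPM (means over mice) in the microglial states with at least 50 cells per mouse. Pdgfb was highest in endothelial-like cells (514, 410, 299 and 319 CPM) and, among microglia, in D/E-like cluster 3 (321, 313, 211 and 158 CPM). It was at 23.2 to 34.5 CPM in cluster 1. The endothelial values rest on 6 to 46 UMIs per mouse.

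Tgfa was highest in endothelial-like cells (89.3, 24.1, 42.8 and 106 CPM, from 1 to 8 UMIs per mouse) and oligodendrocyte-like cells (50.7 and 44.0 CPM in PRMT1FL mice and 97.2 CPM in KO mouse 1). Among microglia, D/E-like cluster 3 held 46.0, 39.6, 43.1 and 42.9 CPM, D/E-like cluster 5 held 39.0, 41.6, 48.7 and 35.6 CPM, and A1-like cluster 8 was the lowest microglial state at 9.23 to 18.2 CPM. Hbegf stood apart in cells that are not microglia, with 67.0, 169, 128 and 106 CPM in endothelial-like and 25.6, 51.1, 37.6 and 39.1 CPM in astrocyte-like cells. Its microglial levels reached at most 13 CPM in any mouse and state with at least 50 cells per mouse.

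Vegfa was highest in astrocyte-like cells (164, 216, 84.5 and 196 CPM), which also carried choroid plexus genes. Among microglia it was highest in cluster 2 (31.8, 32.1, 17.5 and 8.38 CPM). Vegfb had its highest microglial level in A1-like cluster 8 (159, 146, 122 and 116 CPM) and its lowest in D/E-like cluster 3 (64.7, 62.3, 55.1 and 63.2 CPM). Osm was highest in neutrophil-like cells, at 223 and 192 CPM in PRMT1FL mice and 29.6 CPM from 1 cell of KO mouse 2 (KO mouse 1 had none). Among microglia Osm reached 162, 147, 157 and 123 CPM in cluster 2, which is rich in cytokine genes. It was low in A1-like cluster 8 (1.32 to 8.09 CPM) and cluster 1 (6.90 to 10.6 CPM).

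Bmp2 was a gene of F-like cells. It stood at 18.3, 31.5, 21.4 and 15.1 CPM there, and in subcluster 7.4, led by Mrc1, F13a1 and Lyve1, at 53.6, 81.3, 105 and 89.2 CPM. Of its 157 UMIs, 141 lay outside the microglial clusters (89.8%). A UMI of Bmp2 was found in 8.97% of F-like cells without thinning, against 0.0196% of the cells of cluster 0, whose median depth was higher (9497 against 5821 UMIs), and after thinning to 1000 UMIs in 3.23% against 0.00982%. Of the 28 UMIs of Inhba, 22 lay outside microglia, with 9 in neutrophil-like and 12 in astrocyte-like cells.

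**Figure D3:**
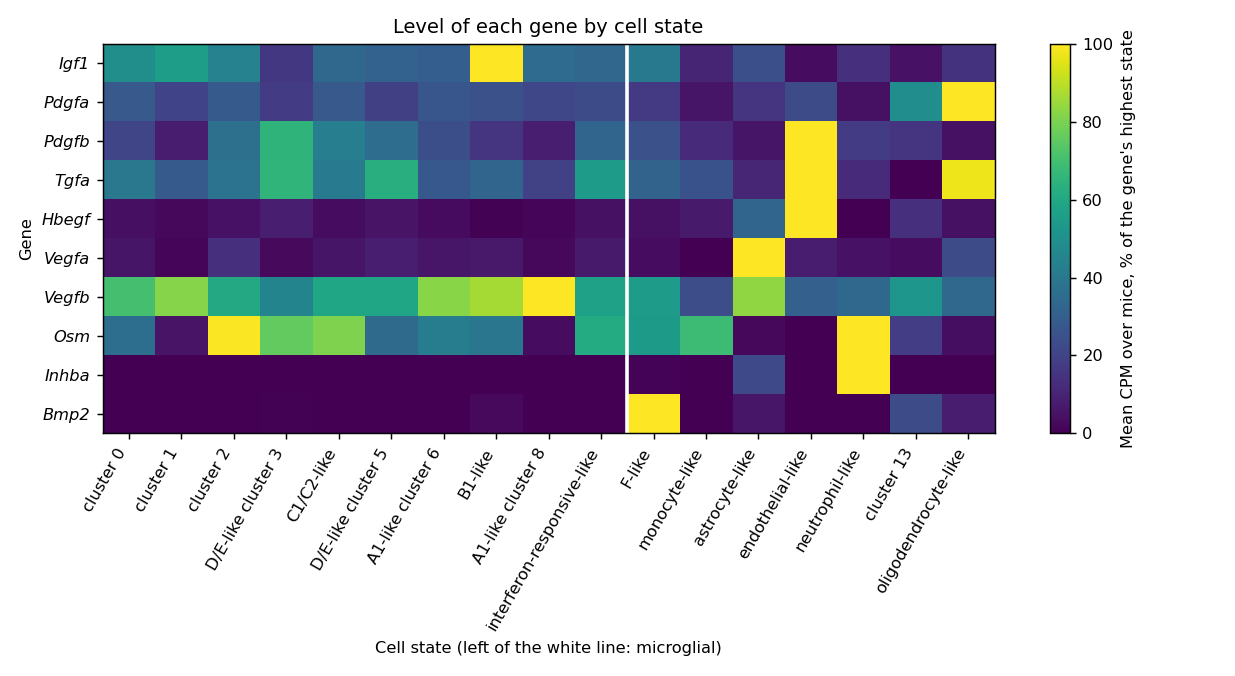
Mean level over mice of each gene (rows) in each cell state (columns), as a percentage of the gene's highest state (colour scale from 0 to 100), with microglial states to the left of the white line. Igf1 is highest in B1-like cells and Osm in neutrophil-like cells and cluster 2, while Pdgfa, Pdgfb, Tgfa, Hbegf, Vegfa, Inhba and Bmp2 are highest outside microglia, where several levels rest on few UMIs.

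The genotypes were then compared inside each of the 11 states with at least 50 cells in every mouse. Of 84 pairs of member and state with enough counts, 11 passed an adjusted p of 0.05 (edgeR in each state), 8 higher and 3 lower in KO mice. The share of all genes called was 19.4% in D/E-like cluster 3, 17.4% in D/E-like cluster 5, 2.83% in cluster 1, 1.87% in cluster 2 and 1.58% in F-like cells. It was 0.874% in C1/C2-like, 0.866% in interferon-responsive-like, 0.813% and 0.435% in the A1-like clusters 8 and 6, 0.731% in B1-like cells and 0.696% in cluster 0. In the 2 D/E-like clusters, which hold 8 of the 11 calls, many genes therefore differed. The groups did not overlap for Igf1 in 10 of the 11 states, with KO mice higher in 9. In B1-like cells, where KO mice were lower, the nearest mice were at 528 and 527 CPM. The states share the same 4 mice, so they are not independent counts. In the microglial sums 38.8% of genes were higher in both KO mice, and the share inside each state is not given here.

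In D/E-like cluster 3, Igf1 was at 21 and 24.7 CPM in PRMT1FL mice (92 and 93 UMIs) and at 124 and 180 CPM in KO mice (728 and 1050 UMIs). Both KO mice were far above both PRMT1FL mice, whose level lay below the 28.9 CPM that 5 UMIs gave in endothelial-like cells. The log2 fold change was 2.77 (SE 0.17, adjusted p = 1.9e-08 from edgeR). In D/E-like cluster 5 the values were 48.4 and 73.4 CPM against 227 and 329 CPM, again without overlap, with a log2 fold change of 2.27 (SE 0.20, adjusted p = 6.9e-07). Here 10.3% and 9.36% of all genes were called higher in KO mice, in cluster 3 and cluster 5. Over the alternatives that gave a value, leaving out each mouse included, the fold was 2.12 to 3.22 in cluster 3 and 1.95 to 3.23 in cluster 5, past the threshold in each.

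Inside these clusters 4 genes of activated microglia were also read. Apoe, the lipid carrier that activated microglia raise, was at 9249 and 7175 CPM in PRMT1FL mice and 17865 and 18623 CPM in KO mice in cluster 3, and at 17448 and 17226 against 36261 and 37867 CPM in cluster 5. Spp1, which encodes osteopontin, was at 147 and 118 against 349 and 371 CPM in cluster 3 and 337 and 323 against 1391 and 1393 CPM in cluster 5. Lpl, the lipoprotein lipase gene, was at 159 and 156 against 300 and 440 CPM in cluster 3 and 250 and 311 against 461 and 765 CPM in cluster 5. Cst7, a further gene of activated microglia, overlapped between genotypes in both clusters (212 and 181 against 219 and 209 CPM in cluster 3). Cells were also thinned to 1000 UMIs, and those with a UMI of Apoe, Spp1, Lpl or Cst7 were left out. In cluster 3, 2, 1, 5 and 3 Igf1 UMIs remained in 259, 268, 218 and 140 cells (7.72, 3.73, 22.9 and 21.4 CPM). In cluster 5, 1, 0, 3 and 3 remained in 92, 116, 58 and 49 cells (10.9, 0, 51.7 and 61.2 CPM). These UMIs were too few to be fitted. The part of these genes in the Igf1 difference was not tested beyond these counts.

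Igf1 was also called higher in KO mice in 2 other states. In interferon-responsive-like cells it was at 125 and 131 CPM against 193 and 266 CPM (log2 fold change 0.79, SE 0.15, adjusted p = 0.00914 from edgeR, 0.515% of genes called higher), with a fold of 0.57 to 1.01 when each mouse was left out in turn. In C1/C2-like cells the levels were 142 and 156 CPM against 210 and 220 CPM (0.50, SE 0.09, adjusted p = 0.0186 from edgeR, 0.565% of genes called higher). With the first or the second PRMT1FL mouse left out the fold was 0.43 and 0.57, and the call was lost each time. In such fits the variance is estimated from the KO mice only, so this loss does not show that the call depends on either mouse. At the higher clustering resolution the fold was 0.35 (adjusted p = 0.156 from edgeR). C1/C2-like cells themselves made up 13.2 and 13.9% of the cells in PRMT1FL mice and 10.1 and 4.35% in KO mice.

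B1-like cells showed no such rise. With 528 and 608 CPM against 527 and 497 CPM, the log2 fold change of Igf1 was -0.18 (SE 0.16, adjusted p = 0.802 from edgeR), although this state has the highest level. Different subclusters made up the state in each genotype, as subcluster 7.1 held 29 of 93 and 8 of 57 cells in PRMT1FL mice and 68 of 185 and 404 of 718 cells in KO mice. The Igf1 level was 589, 621, 542 and 539 CPM in subcluster 7.0 and 218, 523, 517 and 429 CPM in subcluster 7.1, from 22 UMIs in each PRMT1FL mouse. The genotype effect on Igf1 in B1-like cells differed from the mean effect of the other microglial states by -1.11 on the log2 scale (SE 0.17, adjusted p = 0.000301 from limma's voom over sums per mouse and state with the mouse as random block, where 1.09% of genes were called). In the D/E-like clusters 3 and 5 the effect exceeded that mean by 2.17 (SE 0.26, adjusted p = 5.3e-07 from limma's voom) and 1.65 (SE 0.25, adjusted p = 2.3e-05), with 10.1% and 12.3% of genes called.

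Osm rose in the same clusters. It was at 83.5 and 82.7 CPM against 157 and 126 CPM in D/E-like cluster 3 (log2 fold change 0.80, adjusted p = 0.00013 from edgeR) and at 22.6 and 28.6 CPM against 85.4 and 68.1 CPM in D/E-like cluster 5 (1.62, adjusted p = 9.3e-06). The groups were apart in both. With the clustering resolution raised by 0.4 the value in cluster 5 was 0.38 (adjusted p = 0.347). In cluster 2, where the Osm level was high, no difference was called (162 and 147 against 157 and 123 CPM). The effect in cluster 5 exceeded the mean of the other states by 1.32 (adjusted p = 0.00481 from limma's voom). That in cluster 2 differed from the mean of its other states by -0.74 (adjusted p = 0.0342, 0.596% of genes called), a mean that the D/E-like clusters raise.

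Pdgfb moved the other way there. In D/E-like cluster 3, its highest microglial state, it fell from 321 and 313 CPM to 211 and 158 CPM (log2 fold change -0.75, SE 0.12, adjusted p = 0.000315 from edgeR), where 9.08% of genes were called lower. In cells thinned to 1000 UMIs the fold was -0.64 (adjusted p = 0.00119 from edgeR). Without cells that had a UMI of Apoe, Spp1, Lpl or Cst7 it was -0.23 (adjusted p = 0.795 from edgeR), from only 13.2 to 32.2% of the thinned cells per mouse. In D/E-like cluster 5 it was at 155 and 161 CPM against 121 and 111 CPM (-0.38, adjusted p = 0.0359), where 8.02% of genes were called lower. Leaving out PRMT1FL mouse 1 (-0.41, adjusted p = 0.112 from edgeR), PRMT1FL mouse 2 (-0.33, adjusted p = 0.270) or KO mouse 2 (-0.32, adjusted p = 0.139) ended that call with a fold of like size. So did thinning (-0.46, adjusted p = 0.084), the higher clustering resolution (-0.38, adjusted p = 0.0574) and clustering on all variable genes (-0.26, adjusted p = 0.176).

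Vegfa differed in opposite directions between states. In D/E-like cluster 5 it was at 4.4 and 6.48 CPM in PRMT1FL mice and at 26.3 and 17.3 CPM in KO mice (log2 fold change 1.97, SE 0.34, adjusted p = 0.000604 from edgeR), from 7 and 12 UMIs against 68 and 110. In cluster 2, its highest microglial state, it was at 31.8 and 32.1 CPM against 17.5 and 8.38 CPM (-1.36, SE 0.26, adjusted p = 0.0451, 0.832% of genes called lower). The groups were apart in both states, upward in the one and downward in the other. Each of 3 settings ended the call in cluster 2, namely leaving out PRMT1FL mouse 1 (-1.39, adjusted p = 0.0545 from edgeR), another seed of the clustering (-1.33, adjusted p = 0.0795) and the higher resolution (-1.31, adjusted p = 0.0598). Without KO mouse 1 and KO mouse 2 the fold was -2.05 and -0.94. Over all 10 states tested, which share the same 4 mice, both KO mice were lower in 7 and higher in 2, the D/E-like clusters. In the microglial sums 17.1% of genes were lower and 38.8% higher in both KO mice, and the share inside each state is not given here. In the D/E-like clusters the Vegfa effect exceeded the mean of the other states by 2.14 in cluster 3 (adjusted p = 0.048 from limma's voom) and 3.08 in cluster 5 (adjusted p = 0.00242).

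Hbegf was also called in D/E-like cluster 5, at 3.14 and 4.32 CPM against 8.12 and 9.44 CPM (log2 fold change 1.32, adjusted p = 0.0298 from edgeR), from 5 and 8 UMIs in PRMT1FL mice. Leaving out PRMT1FL mouse 1 (1.12, adjusted p = 0.183 from edgeR), PRMT1FL mouse 2 (1.6, adjusted p = 0.0742) or KO mouse 2 (1.16, adjusted p = 0.241) removed the call, as did clustering on all variable genes (1.45, adjusted p = 0.059). Pdgfa, Tgfa and Vegfb were called in none of the 11 states by edgeR. Their folds ranged from -0.38 to 0.24 for Pdgfa, from -0.43 to 0.29 for Tgfa and from -0.56 to 0.06 for Vegfb.

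**Figure D4:**
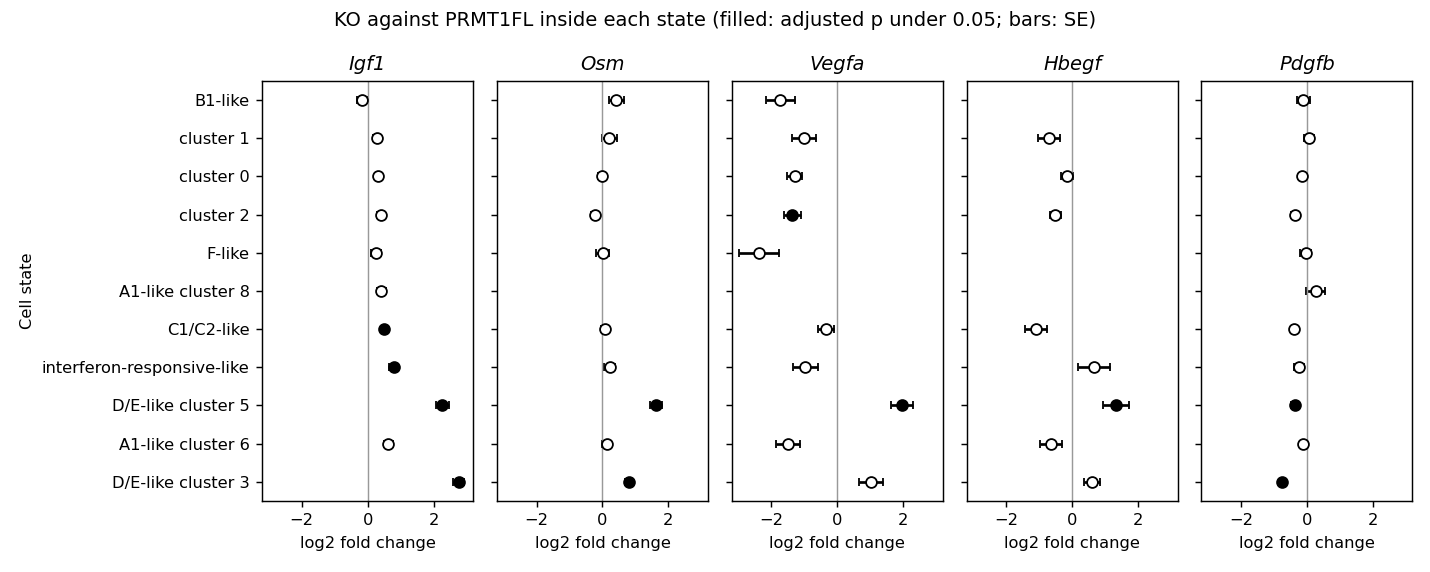
Log2 fold change of KO against PRMT1FL mice (horizontal axis, bars are SE) for 5 genes in each cell state (vertical axis), with filled points where the adjusted p of edgeR is under 0.05. Igf1 lies at 2.77 and 2.27 in the D/E-like clusters and at -0.18 in B1-like cells, and Vegfa is at 1.97 in D/E-like cluster 5 but at -1.36 in cluster 2.

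For the members whose genotype effect varied most between states, sequence at annotated starts was read from RefSeq promoters of GRCm38.p6, in which 6 of the 10 members were found. The 250 bases before each start were searched on both strands for TGANTCA (AP-1), TTCNNNGAA (STAT), ACGTG (hypoxia response core) and the NF-kB motif, which occur in 6.75%, 7.02%, 16.6% and 0.356% of all 32851 promoters of this length. The upstream start of Vegfa, shown because Vegfa moved both ways, held none of the 4 motifs in its 250 bases (chr17:46032378-46032627, minus strand, 59.2% G or C). A second start of Vegfa held the hypoxia core on the other strand, and Igf1 held an AP-1 match 37 bases before a start inside the gene. Capitals mark the match, both sites are 30 bases long, at chr17:46025358-46025387 (minus strand) and chr10:87861062-87861091 (plus strand), and counting the 3' ends of transcripts does not show which start was used.
Vegfa, upstream start: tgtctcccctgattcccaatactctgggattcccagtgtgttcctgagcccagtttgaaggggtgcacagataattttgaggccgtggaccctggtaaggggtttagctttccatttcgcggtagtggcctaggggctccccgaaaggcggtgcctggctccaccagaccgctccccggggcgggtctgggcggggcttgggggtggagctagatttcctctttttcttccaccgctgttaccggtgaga
Vegfa, second start: tggagtgcgtgccCACGTcagagagcaaca
Igf1, start inside the gene: ggagctggaactTGAATCActattctggat

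CD11c, the product of Itgax, marks a subset of microglia that the study followed, so microglia with a UMI of Itgax were compared with those without, after thinning each cell to 1000 UMIs. Cells with a UMI of Itgax made up 11.1 and 11.5% of microglia in PRMT1FL mice and 5.79 and 3.13% in KO mice. Igf1 was at 233, 302, 365 and 406 CPM in cells with, and at 175, 175, 229 and 312 CPM in those without. It was higher in the former in 4 of 4 mice, by a log2 ratio of 0.38 to 0.78. The fitted effect over the genotypes was 0.65 (SE 0.06, adjusted p = 2.3e-22 from edgeR with the mouse as a term), where 6.17% of 10681 genes were called. The variance in this fit is shared over genes, so its SE and p-value reflect the spread of these 4 ratios only in part.

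This effect was not shown to differ between genotypes. The difference, KO minus PRMT1FL, was -0.09 (SE 0.12, adjusted p = 0.977 from edgeR, with 0.0749% of genes called), and without thinning it was -0.33 (adjusted p = 0.00665, 1.69% of genes called). Cells without a UMI of Itgax carried 85.8, 81.7, 91.1 and 96.0% of the thinned Igf1 UMIs. A cell that expresses Itgax can hold no UMI of it after thinning, so these are not the shares of CD11c-negative microglia. By flow cytometry, which reads protein, the study found larger shares of CD11c+ microglia in both genotypes on this diet. Among the other members, Osm was higher in cells with a UMI of Itgax in PRMT1FL mice (106 and 75.1 CPM against 80.7 and 72.4 CPM, log2 effect 0.37, adjusted p = 0.0382 from edgeR, 5.35% of genes called), and was 0.14 (adjusted p = 0.942) or 0.50 (adjusted p = 0.0815) with the first or the second PRMT1FL mouse left out, neither past the threshold. Pdgfa was at 87.8, 90.2, 87.2 and 53.5 CPM with and 76.8, 79.9, 75.5 and 62.0 CPM without a UMI of Itgax, and was not called (adjusted p = 0.325 over the genotypes). The other members were not called at this depth.

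**Figure D5:**
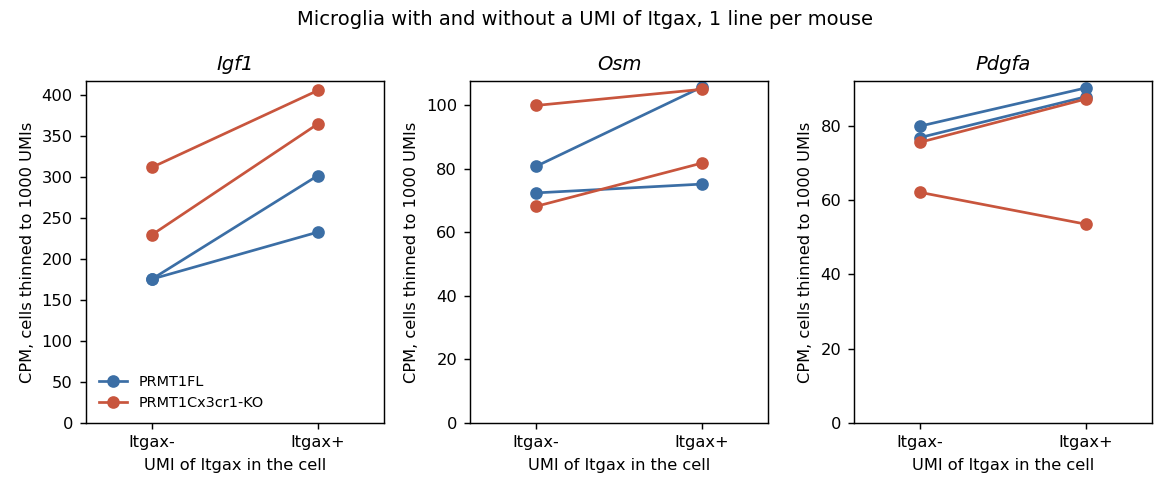
Level of Igf1, Osm and Pdgfa (vertical axis, CPM from 0) in microglia without and with a UMI of Itgax (horizontal axis), from cells thinned to 1000 UMIs, with 1 line per mouse in blue for PRMT1FL and red for KO. Igf1 is higher in cells with a UMI of Itgax in 4 of 4 mice, and both KO mice lie above both PRMT1FL mice on either side.

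The genes whose pattern was most like that of a member were read over 40 sums (4 mice by 10 microglial states), after the mean of each mouse was subtracted, among 7353 genes. These points share libraries and depth, so the coefficients are a description. For Igf1 they were Cd63, a tetraspanin of late endosomes (Pearson's r 0.937), Fabp5, a fatty acid carrier (0.930), Ctsb, a lysosomal protease (0.927), Dpp7 (0.925) and Anxa5 (0.922). Pdgfb was most like the immediate early genes Rhob (0.973), Jun (0.971) and Ier5 (0.971), and Osm was most like Ccrl2 (0.979), Tgif1 (0.977) and Id2 (0.975). The nearest genes were Bcar3, Zfand2a and Rab7b for Pdgfa (0.804, 0.802 and 0.785), Vwa5a, Stxbp3 and March1 for Tgfa (0.902, 0.897 and 0.892), and Tle5, Mrpl42 and Ndufa2 for Vegfb (0.912, 0.904 and 0.902).

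The other genes of the same signalling systems were read from fixed lists in the microglial sums. In the IGF axis, 7 of 17 genes were tested, 1 was called higher and 0 lower by edgeR, and the median log2 fold change was 0.01 beside -0.004 over all genes. At an unadjusted p under 0.05, 2 were higher and 3 lower. For this list and those below, 0.666% of all genes tested were called. At an unadjusted p under 0.05 there were 19.7% of them, in both directions together. The gene called was Igfbp5, a binding protein that holds IGF1 in the tissue, at 4.35 and 3.60 CPM against 13.5 and 19.99 CPM (log2 fold change 1.99, SE 0.19, adjusted p = 0.0228 from edgeR). With the first or the second PRMT1FL mouse left out its fold was 2.14 and 1.86, not past the threshold in these fits, whose variance is estimated from the KO mice only. Igfbp5 was also among the leading genes of a B1-like subcluster, and without B1-like cells its fold was 2.10 (adjusted p = 0.0137). Igfbp4 was at 10.4 and 10.0 against 12.8 and 16 CPM (adjusted p = 0.119), Igf1r, the receptor, at 25.1 and 24.7 against 21.3 and 18.8 CPM (adjusted p = 0.0988), and Igfbp6 at 5.96 and 6.41 against 5.05 and 3.21 CPM (adjusted p = 0.179), each by edgeR.

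None of the 5 tested of 12 PDGF and VEGF genes, the 3 of 12 EGF family genes, the 9 of 11 IL-6 family genes or the 13 of 22 activin and BMP genes was called by edgeR, and the medians were 0.02, -0.06, -0.05 and 0.005. At an unadjusted p under 0.05 there were 0 PDGF and VEGF genes, 1 EGF family gene, 3 IL-6 family genes and 1 activin and BMP gene. Both KO mice were higher for 2 of the 5, 1 of the 3, 1 of the 9 and 6 of the 13 genes in that order, beside 38.8% of all genes, and lower for 3 of the IL-6 family and 0 of the others, beside 17.1%. Among the higher ones were Nrp2, a co-receptor of VEGF (56.0 and 52.8 against 57.4 and 64.4 CPM), Pdgfc (0.762 and 0.729 against 0.798 and 0.798 CPM), the sheddase gene Adam10 (98.0 and 102 against 113 and 125 CPM), Cntf (0.625 and 0.564 against 0.835 and 0.765 CPM) and Id2 (191 and 231 against 286 and 238 CPM). The activin and BMP gene at an unadjusted p under 0.05 was Id1, a target of BMP signalling, at 3.66 and 4.17 CPM in PRMT1FL mice and 7.61 and 6.50 CPM in KO mice (log2 fold change 0.78, adjusted p = 0.0716 from edgeR). Lifr and Il6st, which encode receptor chains of the IL-6 family, were at 12.6 and 12.3 against 10.6 and 11.6 CPM and at 69.9 and 72.0 against 67.1 and 66.4 CPM.

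Among 20 other secreted growth factors, 14 were tested and 1 was called, beside 0.666% of all genes. At an unadjusted p under 0.05 there were 2 higher and 6 lower, beside 19.7% of all genes in both directions. Gdf15, a stress-induced factor, was at 10.6 and 16.5 CPM in PRMT1FL mice and 49.9 and 57.0 CPM in KO mice (log2 fold change 1.91, adjusted p = 0.0228 from edgeR). With the first PRMT1FL mouse left out its fold was 1.62, not past the threshold in that fit, whose variance is estimated from the KO mice only. Hgf, the ligand of MET, was at 2.17 and 2.49 against 3.59 and 3.79 CPM (adjusted p = 0.0965), Pros1 at 111 and 115 against 97.7 and 101 CPM (adjusted p = 0.102) and Psap at 2507 and 2340 against 2147 and 1883 CPM (adjusted p = 0.157). Of the 12 hypoxia-responsive genes, read beside Vegfa, all were tested, 1 was called lower and 0 higher, with a median of -0.21. At an unadjusted p under 0.05, 5 were lower and 1 higher, beside 19.7% of all genes in both directions. The groups did not overlap for 6 lower and 1 higher gene, beside 17.1% and 38.8% of all genes. Ankrd37 was at 9.16 and 9.79 CPM against 5.60 and 6.01 CPM (-0.78, adjusted p = 0.0326 from edgeR). With the first or the second PRMT1FL mouse left out its fold was -0.83 and -0.73, not past the threshold in these fits, whose variance is estimated from the KO mice only. Thinning, with all mice, also ended that call (-0.42, adjusted p = 0.352 from edgeR). The higher one was Adm, at 0.432 and 0.261 against 0.823 and 0.819 CPM (adjusted p = 0.114), and P4ha1, a collagen prolyl hydroxylase gene, was at 133 and 135 against 116 and 121 CPM (adjusted p = 0.102).

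The 15 immediate early and dissociation genes, which rise when cells are handled, were read because the members Osm, Hbegf and Pdgfb share their fast induction. None was called by edgeR, 1 was higher and 2 were lower at an unadjusted p under 0.05, and their summed level was 13054 and 12727 CPM against 14901 and 11363 CPM in KO mice. Dusp1 was at 448 and 445 against 566 and 604 CPM (adjusted p = 0.0867 from edgeR), Hspa1b at 57.7 and 87.8 against 37.5 and 56.2 CPM (0.176) and Ccl3 at 1480 and 1473 against 1357 and 1175 CPM (0.189). The order of the mice in that sum was the order of Osm (85.1, 76.2, 105 and 69.6 CPM). The part of handling in the Osm values was not tested.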

How the data were processed

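Single-cell RNA of CD45+ CD11b+ sorted brain cells was read from 4 mice. The authors deposited raw UMI counts per gene and barcode, made with Cell Ranger 3.1.0 on mm10 by the submitters' processing notes, which also name Seurat 3.2.0 and Scanpy 1.5.2. The members and gene lists were chosen with earlier results of these data known.

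Barcodes were kept at 200 to 6000 genes and no more than 10% mitochondrial UMIs (11427 and 8170 in PRMT1FL mice, 10370 and 10902 in KO mice). They were clustered in scanpy 1.11.5 (2000 variable genes, 20 components, 15 neighbours, Leiden resolution 0.5) without 868 genes, namely those differing between genotypes (749), the members and the listed genes. The automatic doublet cut marked almost no cells, so the top-scored 0.8% per 1000 cells (6.54 to 9.15% per library) were marked. They were kept, and left out as an alternative.

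The mouse was the replicate. UMIs were summed per mouse, over the microglial clusters or per state with at least 50 cells in every mouse, and genotypes were compared with edgeR 4.0.16 (TMM, filterByExpr, quasi-likelihood test), with Benjamini-Hochberg adjustment over all genes tested and a threshold of 0.05. Differences between states used limma 3.58.1 (voom), and DESeq2 1.42.0 was an alternative. An exact permutation test of 2 against 2 mice cannot go below 0.333. Scripts were tested on simulated data. Intervals and limits cover counting error only. Named genes were the members, the genes of each list that were called, in each direction the 2 of a list with the smallest unadjusted p among those with non-overlapping groups, and the 5 genes most like Igf1 and 3 most like each other member of at least 10 CPM. Leading genes of clusters, and Apoe, Spp1, Lpl and Cst7, were chosen after values were seen.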

Additional observations from a re-analysis of the deposited data

Results flagged for a closer look

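The genotype effect (KO against PRMT1FL, log2) of a state was compared with the mean effect of the other microglial states by limma's voom with the mouse as random block, and the results past an adjusted p of 0.05 are given here as values. For Igf1 the difference was 2.17 in D/E-like cluster 3 (SE 0.26, adjusted p = 5.3e-07), 1.65 in D/E-like cluster 5 (SE 0.25, adjusted p = 2.3e-05), -1.11 in B1-like cells (SE 0.17, adjusted p = 0.000301) and -0.55 in cluster 0 (SE 0.13, adjusted p = 0.0407). For the last 2, the mean of the other states includes the D/E-like clusters, whose own folds of 2.77 and 2.27 raise it. Inside cluster 0 both KO mice were higher for Igf1 (log2 fold change 0.33, SE 0.09, adjusted p = 0.132 from edgeR). Inside B1-like cells the fold was -0.18 (adjusted p = 0.802 from edgeR). For Osm the difference was 1.32 in D/E-like cluster 5 (SE 0.32, adjusted p = 0.00481) and -0.74 in cluster 2 (SE 0.17, adjusted p = 0.0342). The mean set against cluster 2 likewise includes the D/E-like clusters, whose Osm folds of 0.80 and 1.62 raise it. Inside cluster 2 the Osm fold was -0.23 (adjusted p = 0.374 from edgeR) and the genotypes overlapped.

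For Vegfa the difference was 3.08 in D/E-like cluster 5 (SE 0.69, adjusted p = 0.00242) and 2.14 in D/E-like cluster 3 (SE 0.70, adjusted p = 0.048), for Pdgfb -0.59 in D/E-like cluster 3 (SE 0.13, adjusted p = 0.002), and for Hbegf 1.28 in D/E-like cluster 5 (SE 0.42, adjusted p = 0.0424). In the D/E-like clusters 10.1% and 12.3% of all 12087 genes passed the same comparison, in cluster 0 and cluster 2 0.505% and 0.596%, and in B1-like cells 1.09%.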

How the results depend on the processing

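In the microglial sums Igf1 was called by DESeq2 (0.43, adjusted p = 0.0263), with no filter on low counts (0.43, adjusted p = 0.000508) and with the state as a term (0.83), and ranged from 0.22 to 0.61 when 1 mouse was left out. The fit with the state as a term weighs each state equally, the D/E-like clusters included. Its many sums come from the same 4 mice, so its calls rest on no further mice. Hbegf turned to 0.12 with the state as a term, and Osm ranged from -0.31 (without KO mouse 1) to 0.33 and was -0.03 without PRMT1FL mouse 2. Members called, 0 in the reported fit, were 1 by DESeq2, 4 with no filter, 2 with the state as a term and 0 to 6 without a mouse. Genes called, 92 in the reported fit, were 719 by DESeq2, 40 by limma voom, 160 without TMM, 1676 with no filter, 749 in all cells, 765 over every barcode, 149 in thinned cells, 1470 with the state as a term and 4 to 2566 without a mouse. Pairs of member and state called, 11 in the reported fits, were 7 to 26 without a mouse. Igf1 in F-like cells ranged from -0.043 to 0.45 without a mouse, and its Itgax difference was -0.33 unthinned and -0.28 to 0.068 without a mouse. The cause of these changes was not tested.

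Over all genes, the deviations of same-numbered mice correlated at r = -0.0279, and those of crossed numbers have the opposite sign by construction. Same-numbered libraries had similar median depth in microglia, at 6227.5 and 6283.5 UMIs for number 1 and 7068 and 6946 UMIs for number 2. These values cannot show whether the numbers pair the mice, and the reported fits left them unpaired. With the replicate block 268 genes and 19 pairs of member and state were called, and Igf1 and Vegfa in microglia were at 0.41 (adjusted p = 0.0757 from edgeR) and -1.04 (adjusted p = 0.0516). Alternative clusterings that formed no C1/C2-like, B1-like, D/E-like cluster 5 or A1-like cluster 8 state gave no value there. With 2 mice a genotype, and counts of 28 and 157 UMIs for Inhba and Bmp2, small differences were not detectable at this depth.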
